A study of Mus musculus with 10 samples.

Results

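The genes described here are 10 members of the Bcl2 family, which set the threshold for death through the mitochondria. They were found by symbol in the deposited count table and are 10 of its 46959 gene entries. Proteins of this family act on the outer mitochondrial membrane. The antiapoptotic members Bcl2, Bcl2l1 (Bcl-xL), Mcl1 and Bcl2a1b (a copy of A1) hold the effectors Bax and Bak1 in check. The BH3-only members Bcl2l11 (Bim), Bbc3 (Puma), Pmaip1 (Noxa) and Bmf carry stress and growth factor signals to the other members by binding them, and the effectors form the pores that release cytochrome c. In B cells, progenitors that fail to make an antigen receptor and mature cells without survival signals die through this pathway.

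The series holds 10 mouse RNA-seq libraries in 5 groups of 2, all from animals of 8 to 10 weeks. LPS_IL4_SAHA and LPS_IL4 are cultures of spleen cells lacking CD43, a surface protein absent from resting B cells. The samples are named wild type, with a 129 strain background, although the growth protocol speaks of KOKI and BLACK-6 mice. Both grew for 48 h in the presence of 5 µg/ml LPS (lipopolysaccharide), a bacterial activator of B cells, and 20 ng/ml IL4 (interleukin 4). The first also received SAHA (vorinostat), an inhibitor of histone deacetylases, at 200 nM by the sample names and 200 ng/ml by the protocol. 2KO, deltaEmu and RAG2_deficient are described as B cells of the femur, lysed without culture, from mice with a C57BL6 strain background. deltaEmu lacks the intronic enhancer Eµ of the immunoglobulin heavy chain locus. The labels do not spell out 2KO. The design text names mice deficient in 5'Eµ and in the 3' regulatory region of the same locus. RAG2_deficient mice lack a subunit of the recombinase that assembles antigen receptor genes. No femoral group is wild type, and RNA was pooled, so each p-value measures the spread between these libraries only.

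The labels leave doubts that bear on each result. The table only numbers its columns. The number opening a sample title and the sequencing index closing its description point to 1 and the same column in 2 cases and to another column in 8. The index was used. By it, the summed level of 8 pro-B cell markers was 0.946 to 1.67 CPM in spleen libraries and 615 to 2560 CPM in femoral libraries (CPM, counts scaled by library size and TMM factor). If the title numbers were right, no comparison below would hold. Titles and treatment fields also put SAHA on the opposite spleen cultures from the descriptions used here, and by them the sign of each SAHA difference would turn. Rag2, the gene targeted in RAG2_deficient mice, was counted at 13.3 to 20.4 CPM in 2KO and deltaEmu and at 21.7 and 23.8 CPM in the libraries labelled RAG2_deficient. The labels do not give the part removed, so a count over the whole gene cannot check that label. Libraries held 17710154 to 25544275 counts.

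Markers of other marrow cells were present in each femoral library. The summed level of 9 erythroid markers was at most 5.27 CPM in spleen libraries, 10500 and 15600 CPM in 2KO, 2470 and 2620 CPM in deltaEmu, and 5740 and 3140 CPM in RAG2_deficient. The sum of 10 neutrophil markers was at most 0.968 CPM in the spleen, 10500 and 8750 CPM in 2KO, 17600 and 20000 CPM in deltaEmu, and 6570 and 7600 CPM in RAG2_deficient. The 6 markers of all B cells summed to 1930 to 2090 CPM in the spleen and 336 to 1230 CPM in the femur. In each femoral library the erythroid sum and the neutrophil sum were each above the sum of these B cell markers. Fewer cells of a type and less RNA per cell cannot be told apart in bulk libraries.

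Library LPS_IL4 6_et_8 (the number of its RNA pool) and library RAG2_deficient 3 stood apart from their partners by gene length. The median log2 ratio of LPS_IL4 6_et_8 over 4_et_7 was -0.74 for genes under 1 kb and 0.53 for genes over 8 kb. For RAG2_deficient 3 over 2 the corresponding medians were -0.92 and 0.38. In the other 3 groups each of the 5 length classes had a median between -0.2 and 0.3. The members span this range, from Bcl2a1b (817 bases of exon) and Bax (869) to Bcl2l11 (8029) and Bcl2 (9157), so values of the short and long members are also given with an offset for the length trend of each library.

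**Figure D1:**
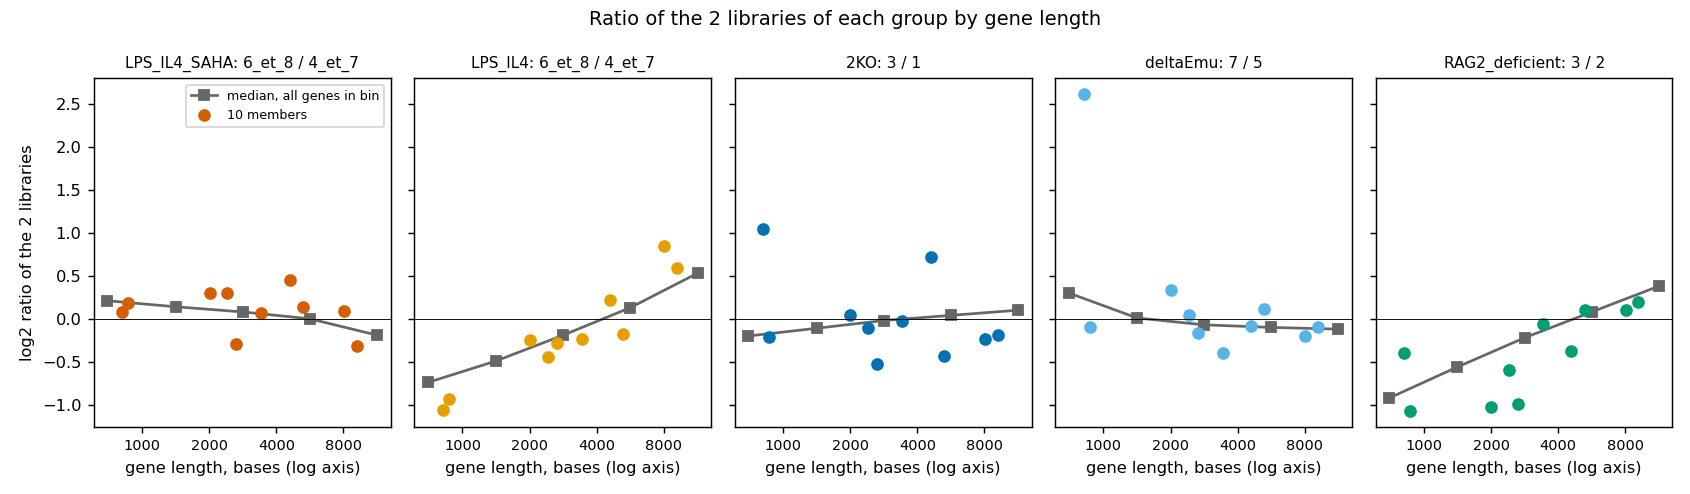
Log2 ratio of the 2 libraries of each group (vertical axis) against gene length in bases (log axis), with grey squares for the median of all genes in a length class and coloured points for the 10 members. In LPS_IL4 the members follow the slope of all genes, with Bcl2a1b and Bax at the low end and Bcl2 and Bcl2l11 at the high end. In RAG2_deficient several members lie away from it. Bbc3 (-1.03) and Pmaip1 (-0.99) are below the median of -0.22 for 2 to 4 kb. Bcl2a1b (-0.4) is above the median of -0.92 for genes under 1 kb. The slopes of all genes in the other groups are flatter.

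Per kb of gene length, Mcl1, a short-lived protein that developing lymphocytes need, was the most abundant member in each of the 10 libraries. It made up 36 and 37.2% of the summed level of the 10 members in LPS_IL4_SAHA and 40.2 and 34.6% in LPS_IL4. Its share was 50.6 and 52.1% in 2KO, 65.4 and 59.6% in deltaEmu and 49 and 58.9% in RAG2_deficient. Bax was next, with 25 to 34.9% of the sum in the spleen and 12.6 to 22.9% in the femur. The antiapoptotic members together held 53.3 and 54.8% in LPS_IL4_SAHA, 57.1 and 50.7% in LPS_IL4, 57.6 and 61.9% in 2KO, 69.3 and 64.5% in deltaEmu, and 56.1 and 67.3% in RAG2_deficient. The BH3-only members stayed at 7.55 to 11.9% in all libraries. These shares count A1 only as Bcl2a1b. The A1 copy Bcl2a1d, not among the 10 members, had 276 and 244 CPM per kb in LPS_IL4_SAHA, where Mcl1 had 148 and 141. In LPS_IL4 it had 105 and 238 CPM per kb, where Mcl1 had 116 and 137. In the femur Bcl2a1d had at most 3.71 CPM per kb. The antiapoptotic share in the spleen would thus be higher with Bcl2a1d counted.

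Within the classes the balance differed more. The level of Bax per kb was 3.99 to 5.65 times that of Bak1 in the 4 spleen libraries and 1.39 to 1.94 times in the 6 femoral libraries, with no overlap. The level of Mcl1 per kb was 40.4 and 32.4 times that of Bcl2l1 in deltaEmu, against 7.84 to 17.2 times in the other 8 libraries. Bcl2, which binds Bcl2l11, was 1.01 to 2.12 times as abundant per kb as Bcl2l11 in all 10 libraries.

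**Figure D2:**
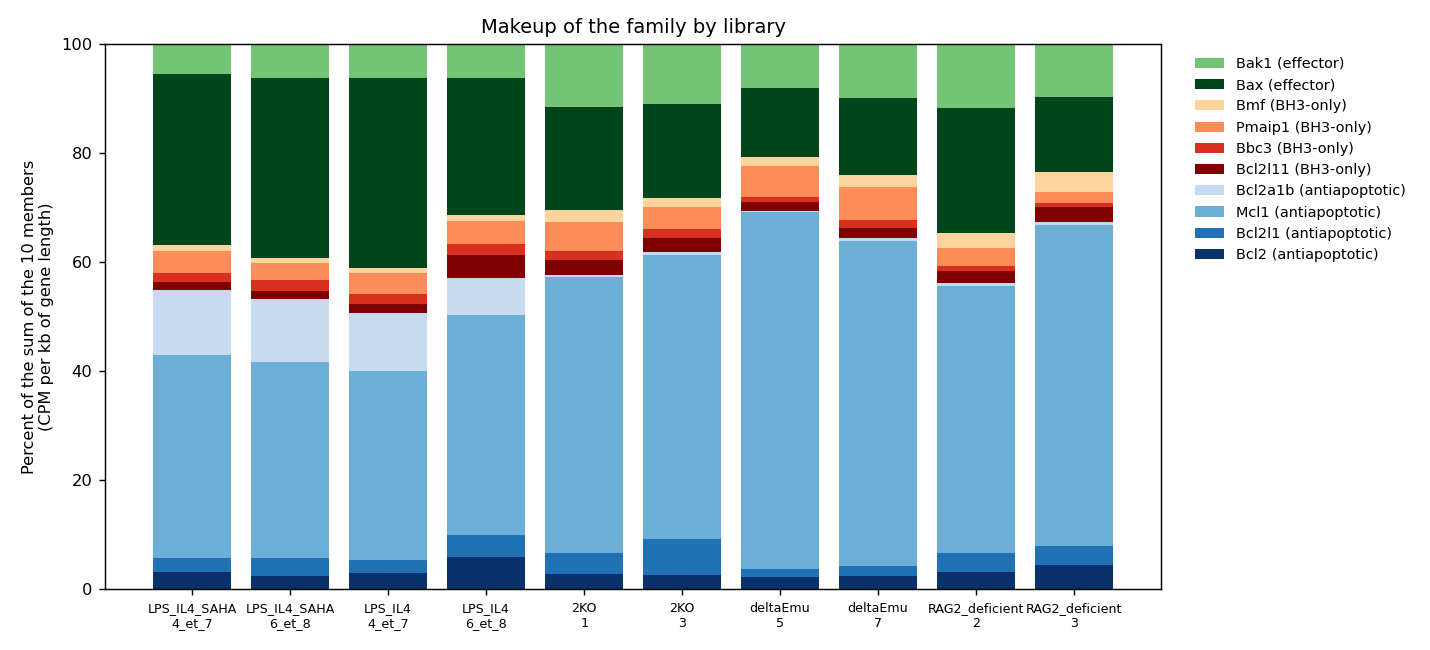
Share of each member in the summed level of the 10 members (percent, levels as CPM per kb of gene length), 1 bar per library, with antiapoptotic members in blue, BH3-only members in orange to red and effectors in green. Mcl1 is the largest block in each bar, Bcl2a1b is visible in the spleen bars only (6.94 to 11.8%, against at most 0.561% in the femur), and the Mcl1 block is tallest in deltaEmu.

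Spleen cultures and femoral cells differed in 7 of the 10 members, of which 6 were higher in LPS_IL4 than in the mean of the 3 femoral groups. These were Bcl2, Bcl2l1 and Bcl2a1b among the antiapoptotic members, Bcl2l11 and Bbc3 among the BH3-only members, and the effector Bax. Bmf was lower. Mcl1, Pmaip1 and Bak1 did not pass. In this comparison 61.2% of all 17483 genes tested passed an adjusted p of 0.05 in edgeR's quasi-likelihood test, so 7 of 10 in either direction is near the background. In the higher direction the background was 26.6% (4649 genes), and in the lower direction 34.6% (6042 genes). The median log2 difference was 0.72 over the members and -0.15 over all genes. Tissue, strain, culture, stimulation and cell makeup all differ between these groups and cannot be told apart.

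Bcl2, the founding survival gene of the family, had 90.5 and 113 CPM in LPS_IL4_SAHA and 160 and 106 CPM in LPS_IL4. It had 58.7 and 51.4 CPM in 2KO, 64.1 and 59.6 CPM in deltaEmu, and 59.2 and 68 CPM in RAG2_deficient. Each spleen library was above each femoral library, and the femoral groups lay close together. The difference of LPS_IL4 from the femoral mean was 1.15 ± 0.17 on the log2 scale (SE), 2.21-fold (adjusted p = 0.000294). It was 0.94 without the library LPS_IL4 6_et_8 and 1.72 with the length offset, and it passed in both.

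Bcl2l1, a survival gene that red cell precursors also need, had 61.4 and 44.8 CPM in LPS_IL4_SAHA and 53.4 and 45.8 CPM in LPS_IL4. In the femur it had 39.7 and 65.2 CPM in 2KO, 23.7 and 22.5 CPM in deltaEmu, and 33.5 and 25.8 CPM in RAG2_deficient. Library 2KO 3 (65.2 CPM) lay above all 4 spleen libraries, and 2KO 1 and the libraries of the other femoral groups lay below all of them. LPS_IL4 was 1.5-fold above the femoral mean (0.59 ± 0.21 on the log2 scale, adjusted p = 0.0313). The call was lost without LPS_IL4 6_et_8 (0.59, adjusted p = 0.0819) and without deltaEmu 7 (0.57, adjusted p = 0.0671).

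Bcl2a1b spanned the widest range. It had 38.7 and 36.7 CPM in LPS_IL4_SAHA and 16.4 and 34.3 CPM in LPS_IL4. In the 6 femoral libraries it was counted at 0.197 to 1.2 CPM, which is 4 to 22 reads. LPS_IL4 was 35.4-fold above the femoral mean (5.15 ± 0.4 on the log2 scale, adjusted p = 3.92e-06), and the log2 difference was 4.52 to 5.73 over 15 alternatives. A1 is a target of NF-κB in activated lymphocytes, and in mice it is encoded by several near-identical copies on chromosome 9. The coding sequence of 516 bases differs between Bcl2a1b and Bcl2a1d at 6 bases (98.8% identity) and between Bcl2a1b and Bcl2a1a at 11 (97.9%). Within the coding bases, a read that covers none of the 12 positions where the 3 copies are not all alike cannot be assigned to one of them. The untranslated exon bases were not compared. The first 120 coding bases of the copies on GRCm38 (GENCODE vM21) are shown because they hold 7 of those 12 positions, in capitals. They lie at chr9:88957051-88957170 (plus strand) for Bcl2a1a, chr9:89199360-89199479 (plus strand) for Bcl2a1b and chr9:88731600-88731719 (minus strand) for Bcl2a1d.
Bcl2a1a: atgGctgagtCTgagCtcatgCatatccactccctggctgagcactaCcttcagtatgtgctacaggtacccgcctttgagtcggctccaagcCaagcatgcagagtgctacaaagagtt
Bcl2a1b: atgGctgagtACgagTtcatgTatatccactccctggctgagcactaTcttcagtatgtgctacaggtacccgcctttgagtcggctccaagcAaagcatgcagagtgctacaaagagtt
Bcl2a1d: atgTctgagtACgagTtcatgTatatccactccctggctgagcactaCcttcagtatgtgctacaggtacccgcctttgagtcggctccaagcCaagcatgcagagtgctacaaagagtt

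In the spleen libraries most A1 reads fell on Bcl2a1d rather than on Bcl2a1b. Bcl2a1d took 83.9 to 85.7% of the reads of the 3 copies there, Bcl2a1b 13.9 to 15.2% and Bcl2a1a at most 0.894%. The sum of the 3 copies was 278 and 248 CPM in LPS_IL4_SAHA, 108 and 241 CPM in LPS_IL4, 3.57 and 4.27 CPM in 2KO, 4.78 and 6.79 CPM in deltaEmu, and 3.38 and 2.57 CPM in RAG2_deficient. By this sum, too, all 4 spleen libraries were far above all 6 femoral libraries. Bcl2a1d alone was 87.9-fold higher in LPS_IL4 than in the femoral mean (6.46 ± 0.26 on the log2 scale, adjusted p = 1.27e-07). Bcl2a1b also shares 401 exon bases with Gm29094 on the same strand, whose count reached at most 3.

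Among the BH3-only members, Bcl2l11 had 49.7 and 46.7 CPM in LPS_IL4_SAHA and 95.9 and 53.1 CPM in LPS_IL4. Its femoral levels were 51.2 and 43.7 CPM in 2KO, 43.5 and 37.8 CPM in deltaEmu, and 35.7 and 38.2 CPM in RAG2_deficient. Only LPS_IL4 6_et_8 lay far from the rest. LPS_IL4 was 1.8-fold above the femoral mean (0.85 ± 0.2 on the log2 scale, adjusted p = 0.0042), with 0.47 without that library (adjusted p = 0.0353) and 1.32 with the length offset.

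Bbc3, a p53 target that binds all antiapoptotic members, had 16 and 13 CPM in LPS_IL4_SAHA and 12.2 and 14.5 CPM in LPS_IL4. In the femur it had 6.85 and 7.08 CPM in 2KO, 6.5 and 8.16 CPM in deltaEmu, and 4.15 and 2.03 CPM in RAG2_deficient. The spleen libraries did not overlap the femoral ones, and RAG2_deficient was below the other femoral groups. LPS_IL4 was 2.48-fold above the femoral mean (1.31 ± 0.24 on the log2 scale, adjusted p = 0.000927).

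Pmaip1, whose product binds mainly Mcl1 and A1, had 33.1 and 40.5 CPM in LPS_IL4_SAHA and 32.2 and 39.2 CPM in LPS_IL4. It had 32.3 and 22.4 CPM in 2KO, 47.3 and 42.3 CPM in deltaEmu, and 17.8 and 8.96 CPM in RAG2_deficient. The spleen levels fell inside the femoral range, and the difference of 0.49 ± 0.24 on the log2 scale did not pass (adjusted p = 0.102). It passed with the length offset (0.81, adjusted p = 0.00691).

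Bmf, whose product is held at the actin cytoskeleton in healthy cells, had 22.4 and 20.3 CPM in LPS_IL4_SAHA and 16.8 and 19 CPM in LPS_IL4. It had 24.3 and 18 CPM in 2KO, 29.5 and 31.9 CPM in deltaEmu, and 29.9 and 31.9 CPM in RAG2_deficient. LPS_IL4 was 1.52-fold below the femoral mean (-0.6 ± 0.16 on the log2 scale, adjusted p = 0.00809). The call was lost with the length offset (-0.19, adjusted p = 0.384) and without LPS_IL4 6_et_8 (-0.4, adjusted p = 0.127), and 1 of the 2KO libraries lay within the LPS_IL4 range.

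Of the effectors, Bax had 117 and 103 CPM in LPS_IL4_SAHA and 63 and 120 CPM in LPS_IL4. It had 36.8 and 31.9 CPM in 2KO, 35.1 and 32.6 CPM in deltaEmu, and 41.1 and 19.5 CPM in RAG2_deficient. All spleen libraries exceeded all femoral libraries. LPS_IL4 was 2.78-fold above the femoral mean (1.48 ± 0.27 on the log2 scale, adjusted p = 0.00108), with 0.94 without LPS_IL4 4_et_7, 1.98 without LPS_IL4 6_et_8 and 1.35 with the length offset, each of which passed.

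Bak1, the other effector, stayed within a narrow band. It had 62.3 and 50.6 CPM in LPS_IL4_SAHA, 43.8 and 59.5 CPM in LPS_IL4, 62 and 57.4 CPM in 2KO, 61.1 and 63.2 CPM in deltaEmu, and 58.8 and 38.8 CPM in RAG2_deficient. Its highest group mean was 1.27 times its lowest, the least of the 10 members, against 54 times for Bcl2a1b. The difference of LPS_IL4 from the femoral mean was -0.13 on the log2 scale, with a 95% interval of -0.56 to 0.3. Mcl1 had 505 and 482 CPM in LPS_IL4_SAHA, 397 and 467 CPM in LPS_IL4, 386 and 380 CPM in 2KO, 715 and 543 CPM in deltaEmu, and 346 and 331 CPM in RAG2_deficient. Its difference was -0.01 (interval -0.4 to 0.39), with deltaEmu above and the other femoral groups below both LPS_IL4 libraries. With the length offset the median of all genes in this comparison was 0.15, against -0.15 without it, and 6605 genes were called higher and 5263 lower. Under it Mcl1 was at 0.29 and Bak1 at 0.19, with neither passing.

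**Figure D3:**
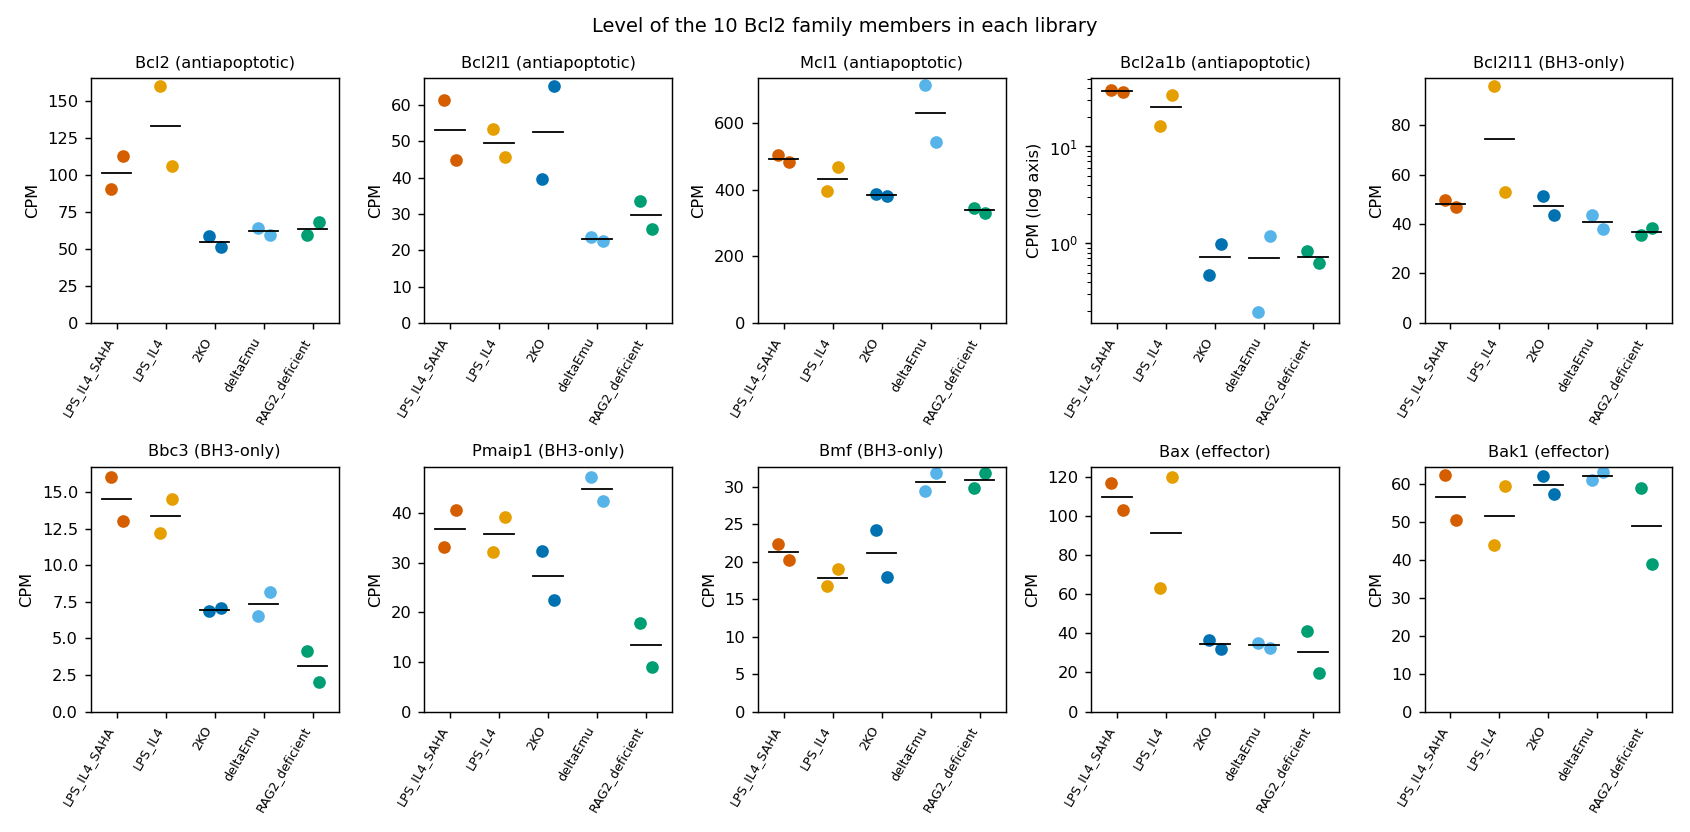
Level of each member in each library (CPM, 1 panel per gene, log axis for Bcl2a1b), with points for the 2 libraries of a group and a line for their mean. Bcl2, Bcl2a1b, Bbc3 and Bax are higher in all spleen libraries than in all femoral ones, Mcl1 is highest in deltaEmu, and Pmaip1 is lowest in RAG2_deficient.

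Promoter letters of the members are shown for a forkhead motif (GTAAACA or TGTTTAC), since FOXO factors act on Bcl2l11 and Bbc3 in many cells, and for an NF-κB motif (GGAAA, 2 bases of any kind and CCC, or its reverse complement), since LPS acts through NF-κB. RefSeq promoters on GRCm38.p6, from 250 bases before to 50 bases after each start site, were matched by symbol for 9 of the 10 members, all but Pmaip1. These 9 genes have 16 promoters, 3 each for Bcl2l1, Bbc3 and Bmf, 2 for Bcl2l11 and 1 for each other gene. Both strands were read. The forkhead letters occurred in 2 of the 16, 1 of Bcl2l11 and 1 of Bbc3, and in 3.65% of all 32851 promoters. The NF-κB letters occurred in 3 of the 16, 1 each of Bcl2l1, Mcl1 and Bbc3, and in 1.63% of all. The STAT motifs, TTC and GAA with 3 bases between (8.3% of all promoters) or with 4 (6.95%), were in none of the members' promoters and in 1 of Bcl2l1. The motifs do not overlap one another in these promoters. Motif letters are in capitals below, and the Bbc3 stretches belong to different start sites. The stretches lie at chr2:128125788-128125847 (plus strand), chr7:16310069-16310128 (plus), chr2:152830901-152830960 (minus), chr3:95658661-95658720 (plus) and chr7:16309422-16309481 (plus), in the order of the lines.
Bcl2l11 forkhead: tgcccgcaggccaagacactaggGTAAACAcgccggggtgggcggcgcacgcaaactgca
Bbc3 forkhead: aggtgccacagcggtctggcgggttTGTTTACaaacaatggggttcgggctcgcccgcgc
Bcl2l1 NF-κB: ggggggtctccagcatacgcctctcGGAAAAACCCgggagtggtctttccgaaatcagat
Mcl1 NF-κB: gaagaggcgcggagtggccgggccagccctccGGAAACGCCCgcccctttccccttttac
Bbc3 NF-κB: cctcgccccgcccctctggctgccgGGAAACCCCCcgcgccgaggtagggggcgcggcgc
A match is a description of these letters only.

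Among the femoral groups, 1 member passed between 2KO and deltaEmu, none between 2KO and RAG2_deficient, and 1 between deltaEmu and RAG2_deficient. These 3 comparisons share libraries and one estimate of spread. Between 2KO and deltaEmu, Bcl2l1 was the member that rose. Its levels of 39.7 and 65.2 CPM in 2KO did not overlap the 23.7 and 22.5 CPM in deltaEmu, a 2.29-fold difference (1.19 ± 0.25 on the log2 scale, 95% interval 0.61 to 1.77, adjusted p = 0.0442). Here 3.7% of 16538 genes passed, 296 higher (1.79%) and 316 lower (1.91%), and leaving out immunoglobulin, mitochondrial and rRNA genes gave 246 higher and 153 lower. The members' median was -0.05, against -0.01 over all genes. Bcl2l1 then just missed the threshold (1.19, adjusted p = 0.0543). It also missed without 2KO 3 (0.8, adjusted p = 0.309), without deltaEmu 5 (1.22, adjusted p = 0.31) and without deltaEmu 7 (1.17, adjusted p = 0.365), and its adjusted p ranged down to 2.56e-06 over the 12 alternatives.

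The erythroid markers moved with it. All 9 of them were higher in 2KO than in deltaEmu, and the library with the highest marker sum, 2KO 3 at 15600 CPM, also had the highest Bcl2l1. Of 6 mature B cell markers 4 were lower, with sums of 30.6 to 32.4 CPM in 2KO and 82.7 to 85.5 CPM in deltaEmu. Of 6 plasma cell markers 2 were lower, Jchain and Irf4, with sums over the 6 of 146 to 169 CPM in 2KO and 676 to 804 CPM in deltaEmu. Jchain alone had 436 to 544 CPM in deltaEmu, the larger part of that sum. The part of these markers in the results of this comparison was not tested. Mcl1 was at -0.7 ± 0.22 on the log2 scale (adjusted p = 0.166), Pmaip1 at -0.7 ± 0.31 (adjusted p = 0.328) and Bmf at -0.52 ± 0.19 (adjusted p = 0.234). None of the 3 passed, although both 2KO libraries were below both deltaEmu libraries for each. DESeq2 also called Mcl1 (adjusted p = 0.0222). The 6 other members were between -0.15 and 0.24.

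**Figure D4:**
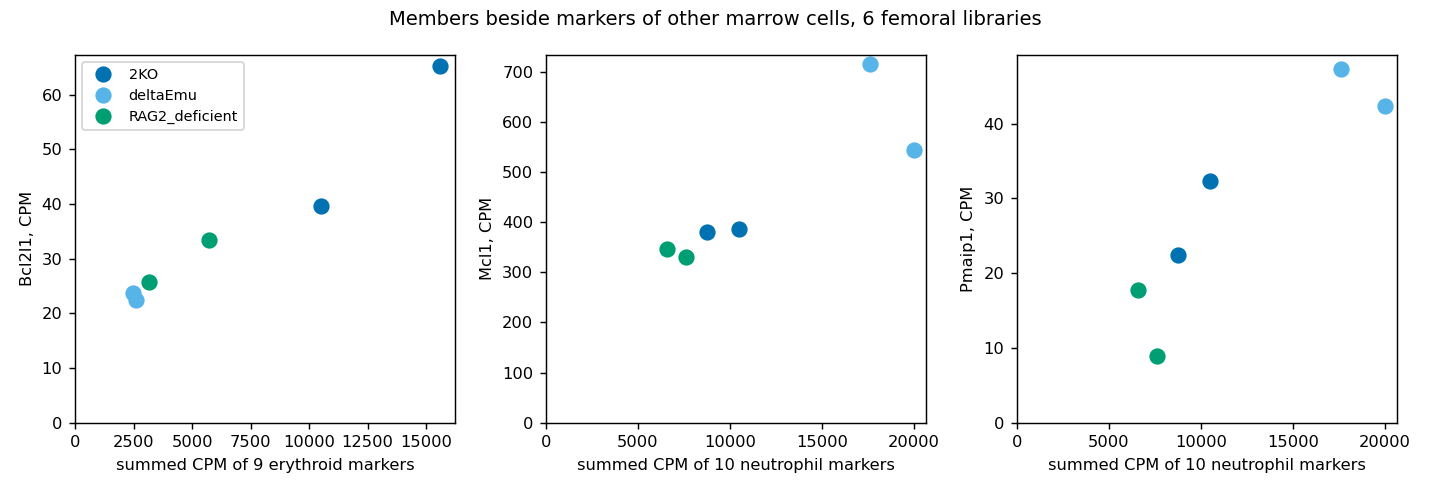
Level of Bcl2l1, Mcl1 and Pmaip1 (CPM, vertical axes) against the summed level of erythroid or neutrophil markers (CPM, horizontal axes) in the 6 femoral libraries, coloured by group. Bcl2l1 is highest in the 2KO libraries, where erythroid markers reach 10500 and 15600 CPM. Mcl1 and Pmaip1 are highest in the deltaEmu libraries, where neutrophil markers reach 17600 and 20000 CPM. Within deltaEmu, the library at 20000 CPM has less Mcl1 (543 CPM) and Pmaip1 (42.3 CPM) than the other (715 and 47.3 CPM). In RAG2_deficient the library with more neutrophil markers also has less of both members, and in 2KO it has more.

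Between deltaEmu and RAG2_deficient, Pmaip1 was the member that rose. It had 47.3 and 42.3 CPM in deltaEmu and 17.8 and 8.96 CPM in RAG2_deficient, a 3.27-fold difference (1.71 ± 0.32 on the log2 scale, interval 0.97 to 2.45, adjusted p = 0.0168), where 9.81% of genes passed, 4.42% higher and 5.39% lower. The log2 difference was 2.28 without RAG2_deficient 2 and 1.3 without RAG2_deficient 3, the library that stood apart, and passed in both. It missed without deltaEmu 5 (1.65, adjusted p = 0.141) and without deltaEmu 7 (1.78, adjusted p = 0.0941), and the adjusted p ranged down to 2.46e-12 over the 12 alternatives. The members' median was 0.11, against -0.01 over all genes.

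Mcl1 was at 0.85 ± 0.22 on the log2 scale and just missed (adjusted p = 0.0524), with 715 and 543 CPM in deltaEmu above the 346 and 331 CPM in RAG2_deficient. Bbc3 was at 1.22 ± 0.35 (adjusted p = 0.0716). Both passed in DESeq2 (adjusted p = 0.00111 for Mcl1 and 0.0245 for Bbc3) and with the length offset (0.0231 and 0.0472). Neutrophil markers moved the same way, with 6 of 10 higher in deltaEmu, none lower, and sums of 17600 and 20000 CPM in deltaEmu and 6570 and 7600 CPM in RAG2_deficient. So did mature B cell markers, with 5 of 6 higher and sums of 82.7 to 85.5 CPM in deltaEmu and 19.1 to 24 CPM in RAG2_deficient. Of 6 plasma cell markers only Jchain passed, and it was higher, at 436 to 544 CPM in deltaEmu and 0.145 to 0.592 CPM in RAG2_deficient. The 6 with Jchain summed to 676 to 804 CPM in deltaEmu and 212 to 245 CPM in RAG2_deficient. Of 6 T and NK cell markers 3 were higher and 1 lower, with sums of 33.4 to 39 CPM in deltaEmu and 42.3 to 54.4 CPM in RAG2_deficient. Pro-B markers went the other way, with 5 of 8 lower in deltaEmu, and so did all 8 stromal markers. The part of these markers in the results of this comparison was not tested. The A1 copy Bcl2a1d rose to 3.2 and 3.08 CPM in deltaEmu, against 0.77 and 0.678 CPM in RAG2_deficient (2.07 ± 0.34 on the log2 scale, adjusted p = 0.0103), which is 65 and 54 reads against 13 and 14.

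Between 2KO and RAG2_deficient no member passed edgeR's test, where 4.31% of genes did, 1.26% higher and 3.05% lower. DESeq2 called 409 genes higher and 750 lower of 27469 tested, and 1 member, Pmaip1 (adjusted p = 0.0447). At an unadjusted p of 0.05 in edgeR, 3183 of 16538 genes and 4 of the 10 members passed. The 4 were Bbc3 (1.16 ± 0.35 on the log2 scale, adjusted p = 0.114), Pmaip1 (1.01 ± 0.32, adjusted p = 0.126), Bcl2l1 (0.79 ± 0.25, adjusted p = 0.123) and Bmf (-0.57 ± 0.19, adjusted p = 0.148). The first 3 had both 2KO libraries above both RAG2_deficient libraries, and Bmf had both below. Leaving out RAG2_deficient 2 or RAG2_deficient 3 leaves 1 library in that group. The number of members passing then depended on which was left out, and so did the number of all genes passing. The members' median was 0.21, against 0 over all genes. Markers differed here as well. Of 8 pro-B markers 5 were lower, with sums of 615 to 955 CPM in 2KO and 2460 to 2560 CPM in RAG2_deficient. Of the 6 markers of all B cells 3 were lower, with 336 to 517 CPM in 2KO and 936 to 1230 CPM in RAG2_deficient. Of 8 stromal markers 5 were lower, with 1150 to 1610 CPM in 2KO and 6610 to 7480 CPM in RAG2_deficient. Of 9 erythroid markers 4 were higher, and none of 10 neutrophil markers passed. The part of these markers in the results of this comparison was not tested.

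With SAHA, no member passed edgeR's test between LPS_IL4_SAHA and LPS_IL4, and neither did any other gene (0 of 13913, or 0%). At an unadjusted p of 0.05, edgeR gave 187 genes and no member, and DESeq2 gave 0 genes adjusted and 317 unadjusted. The intervals allow differences of some size in either direction for each member. Bcl2l11 was at -0.67 on the log2 scale (95% interval -1.46 to 0.12), Bcl2a1b at 0.53 (-0.35 to 1.42) and Bcl2 at -0.42 (-1.14 to 0.29). The narrowest interval was that of Bmf, at 0.21 (-0.28 to 0.71). The members' median was 0.08, against -0.03 over all genes.

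The differences between same-numbered libraries were not alike for the pool numbers. Whether equal numbers pair the libraries cannot be told. Within pool 6_et_8, the log2 difference of LPS_IL4_SAHA minus LPS_IL4 was 1.24 for Bcl2a1b, 0.89 for Bax, -0.82 for Bcl2 and -0.95 for Bcl2l11. Within pool 4_et_7 these were 0.1, -0.21, 0.09 and -0.18. The short members thus lay above 0 and the long ones below 0 in the pool whose LPS_IL4 library has the length trend. Over the 10 members, 5 had the same direction in both pools and 5 did not. Left with LPS_IL4 6_et_8 alone as the library without SAHA, the comparison called Bcl2a1b (1.18, adjusted p = 0.00364), Bcl2l11 (-1.01, adjusted p = 0.00642) and Bax (0.79, adjusted p = 0.0295), out of 2670 genes called. With LPS_IL4 4_et_7 alone it called 5 genes and no member.

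**Figure D5:**
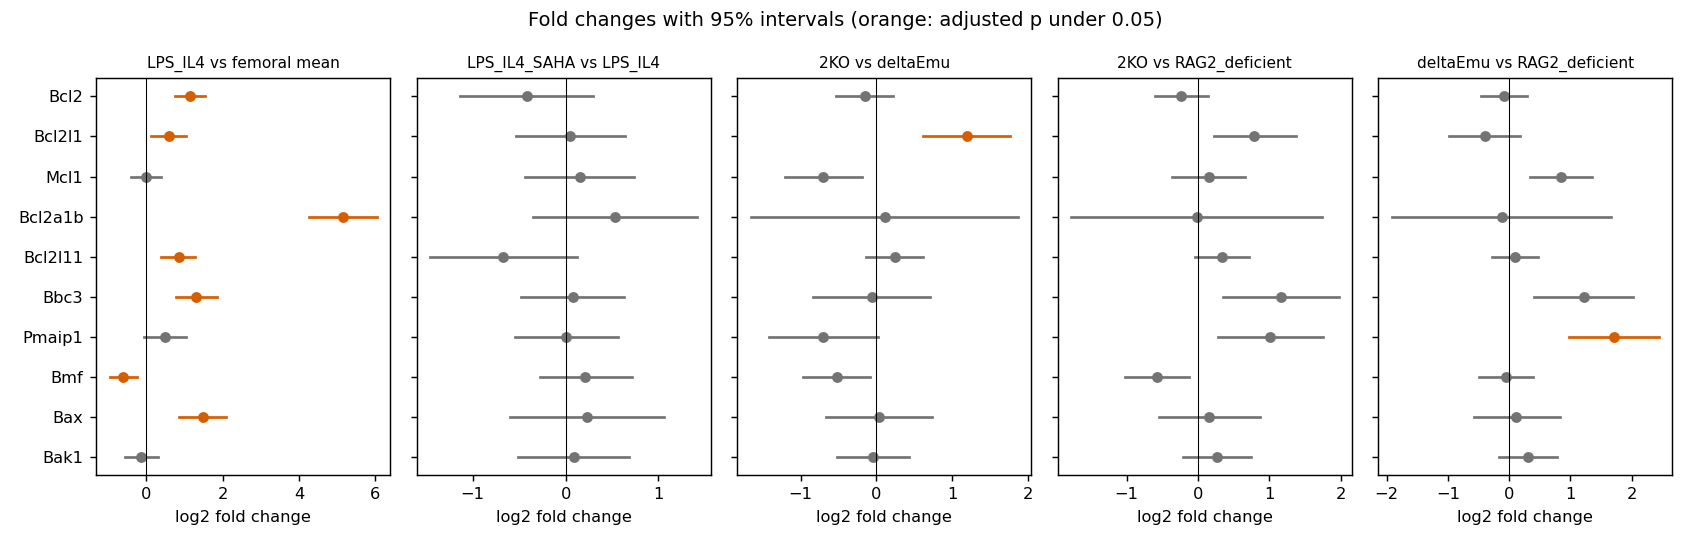
Log2 fold change of each member in the 5 comparisons (horizontal axes, which differ in scale), with points for the estimate and bars for the 95% interval, in orange where the adjusted p is under 0.05. In the spleen against femur panel 7 members are orange, Bcl2l1 is orange in 2KO against deltaEmu, Pmaip1 is orange in deltaEmu against RAG2_deficient, and the SAHA panel has none.

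The rest of the family and its inputs were counted from lists of genes. Of 16 other family genes, 12 were tested among the femoral groups, and Bcl2a1d was the one that passed there. In LPS_IL4 against the femoral mean 13 were tested, with 3 higher and 4 lower. The mitophagy gene Bnip3 had 82.5 and 92.4 CPM in LPS_IL4 and 8.72 to 13.1 CPM in the femoral libraries (3.03 ± 0.15 on the log2 scale). Bid, whose product links death receptors to Bax and Bak1, was 1.57-fold higher. Bok, an effector-like member, had 1 read in one LPS_IL4 library and 0 in the other, against 24 to 71 in the femoral libraries. Bnip3l and Bad were 1.38-fold and 1.98-fold lower. Bcl2l2 (Bcl-w), Bcl2l12 and Bcl2l13 reached 5 CPM and did not pass. For the 13 tested the median was -0.15, the same as over all genes.

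In this comparison 26.6% of all genes tested were higher and 34.6% lower, so counts of both directions in a list stand beside a background of 61.2%. Of 14 caspases and their regulators, 3 were higher and 5 lower in LPS_IL4, with a median of -0.14. Casp6, an executioner caspase, was 2.37-fold lower and Birc3, an inhibitor of apoptosis induced by NF-κB, 2.55-fold higher. Of 14 p53 pathway genes, 6 were higher and 5 lower. The 3 with the smallest adjusted p were all higher, Aen 2.56-fold, Ccng1 2.44-fold and Sesn2 2.9-fold. The 5 lower genes, named after their values were seen, were Perp (45.4-fold), Eda2r (6-fold), Cdkn1a (3.02-fold), Trp53inp1 (2.89-fold) and Sesn1 (1.56-fold). Of 7 partners of the members, Vdac2 was 1.79-fold and Dynll1, the dynein light chain that binds Bim, 1.77-fold higher, and the ubiquitin ligase subunit Btrc 1.87-fold lower. Of 16 genes of survival signals, 9 were higher and 4 lower. The 3 with the smallest adjusted p were the BAFF receptor Tnfrsf13c (33.9-fold higher), Cd40 (29.3-fold) and Tnfrsf13b (7.8-fold). Il7r, a subunit of the receptor for the pro-B cell cytokine IL7 and also 1 of the pro-B markers, was 123-fold lower (-6.94 ± 0.52 on the log2 scale, adjusted p = 3.18e-06), and is named after its value was seen.

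None of these lists had a gene that passed between 2KO and deltaEmu or with SAHA. In 2KO against RAG2_deficient the p53 target Trp53inp1 fell 2.6-fold (adjusted p = 0.0266) and Tnfrsf13c 2.24-fold (adjusted p = 0.0454), beside the lower pro-B and stromal markers given above for that comparison. In deltaEmu against RAG2_deficient, Il4ra, a subunit of the IL4 receptor, rose 1.82-fold (adjusted p = 0.0207) and the death receptor Fas 1.93-fold (adjusted p = 0.0355). Foxo1 had 27.2 to 30.4 CPM in deltaEmu and 58.6 to 116 CPM in RAG2_deficient, a 3.13-fold fall (adjusted p = 0.0167). Trp53inp1 (2.16-fold, adjusted p = 0.0294) and Btrc (1.66-fold, adjusted p = 0.0313) fell as well.

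Across the 10 libraries, the genes most like each member were ranked by Pearson's r of log2(CPM + 1), as a description over libraries that share group, tissue and length trend. Bax was most like Rnaseh1 and Mrpl21 (r = 0.998 each), and Bcl2a1b most like Mreg (0.997) and Bdh1 (0.996). Mcl1 was most like Stat6 (0.989) and Kcnab1 (0.96), Bcl2 most like Arap2 and Hdac9 (0.986 each), and Bbc3 most like Manf (0.987) and Atf4 (0.985). Bak1 was most like Sqstm1 (0.981) and Nmral1 (0.974), Pmaip1 most like Slc15a3 (0.967) and Map3k8 (0.961), and Bcl2l11 most like Srp68 (0.965) and Ndor1 (0.951). Bcl2l1 was most like Lpcat1 (0.963) and Rrm2 (0.96), and Bmf most like Phyh (0.954) and Ntrk3 (0.951). Among the members themselves r was highest for Bcl2a1b with Bax (0.936) and lowest for Bcl2l1 with Bmf (-0.883).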

How the data were processed

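The values used are raw counts per gene, deposited by the authors in a single table of 46959 genes. It also lists 100 control sequences, which were left out. The submitters' processing notes name STAR 2.4.0a, featureCounts, Subread 1.4.6-p1 and the mm10/GRCm38 build. How strand and multiply matching reads were treated, and which annotation was used, is not given in the sources used here. Therefore counts of the A1 copies and of Bcl2 and Bak1, which share exon bases with genes on the other strand, are uncertain to that extent. Per the labels' protocols, each library was a stranded total RNA library made from 500 ng.

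The tests used edgeR 4.0.16 under R 4.3.3 (filterByExpr with a minimum count of 10, TMM factors, quasi-likelihood F test). P-values were adjusted by Benjamini and Hochberg's method across all genes of a fit. Genes are called, or pass, at an adjusted p of 0.05, and adjusted p-values are from this test unless another is named. The 4 spleen libraries formed 1 fit, the 6 femoral libraries another, and LPS_IL4 against the femoral mean used all 10. Alternatives were RLE factors, no filter, DESeq2 1.42.0, 1 fit of all libraries, left-out genes, left-out libraries and a replicate block. A length-trend offset (lowess, span 0.3) and a crossed block were added after seeing the data.

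Levels are CPM by TMM-scaled library size. Levels of different genes are compared as CPM per kb of gene length, not as TPM, because 2 short RNAs took 15.6 to 49% of TPM. The scripts were tested on simulated data, with 200 genes changed in each of 3 comparisons. In 2KO against deltaEmu, 79.8% of 4-fold and 20.6% of 2-fold changes were called. With SAHA these were 78.5% and 11.2%, and in LPS_IL4 against the femoral mean 80.2% and 28.4%. Most simulated differences of 2-fold were thus missed. The simulated data held no length trend and few changed genes. In the real LPS_IL4 against femoral mean comparison 10691 of 17483 genes passed, so the simulated shares do not carry over to it. All 10 members were named in each comparison, and from each other list the 3 called genes with the smallest adjusted p, with family genes reaching 5 CPM. One gene that this rule names is not reported here. Members and lists were chosen with earlier results of these data known. No reads per molecule were marked, so precision rests on 17710154 to 25544275 counts per library and 2 libraries per group.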

Additional observations from a re-analysis of the deposited data

How the results depend on the processing

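Of 630 values of members under alternatives, 550 kept their direction and their side of the threshold, 33 came to pass, 10 no longer passed and 37 turned sign. Of the 129 values of members called in a comparison, 119 were kept, 10 no longer passed and 0 turned. The calls of Bcl2, Bcl2a1b, Bcl2l11, Bbc3 and Bax in LPS_IL4 against the femoral mean passed under all 15 alternatives. The cause of the changes below was not tested, except that leaving out a library also leaves a group with 1 library, whose spread is assumed to be that of the other groups.

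Without the filter on low counts, 27469 genes were tested in each femoral comparison and 23217 with SAHA. Called were 1537 genes and 2 members in 2KO against deltaEmu, and 1971 and 3 in 2KO against RAG2_deficient. In deltaEmu against RAG2_deficient 3308 genes and 3 members were called, and with SAHA 145 genes. DESeq2 tested 27469 genes in each of the 3 femoral comparisons. It called 446 genes higher, 453 lower and 2 members in the first of these, and 1159 genes and 1 member in the second. In the third it called 900 genes higher, 1044 lower and 3 members. With immunoglobulin, mitochondrial and rRNA genes left out, 399 genes and 0 members were called in 2KO against deltaEmu. The fit of all libraries and the length offset each called 3 members in deltaEmu against RAG2_deficient. Beside them, the fit of all libraries called 751 genes higher and 667 lower of 17483. The length offset called 953 higher and 994 lower of 16538.

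Leaving out 1 library at a time gave 119 (without deltaEmu 7) to 1587 genes (without RAG2_deficient 3) and 0 to 2 members in 2KO against deltaEmu. It gave 153 (without 2KO 3) to 3222 genes (without RAG2_deficient 2) and 0 to 5 members in 2KO against RAG2_deficient. In deltaEmu against RAG2_deficient it gave 259 (without deltaEmu 5) to 5401 genes (without RAG2_deficient 2) and 0 to 5 members. With SAHA it gave 0 to 2670 genes (without LPS_IL4 4_et_7) and 0 to 3 members.

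Values that turned sign belonged to members not called. With the length offset these were Bcl2 at 0.09 and Bax at -0.02 in deltaEmu against RAG2_deficient, Bbc3 at -0.07 and Bak1 at -0.01 with SAHA, and Mcl1 at 0.29 and Bak1 at 0.19 in LPS_IL4 against the femoral mean. There Mcl1 was also at 0.01 with RLE factors and 0.05 without the filter, and Bcl2a1b was at 0.02 in 2KO against RAG2_deficient in the fit of all libraries.

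With 1 library left out, the log2 differences that changed sign had these ranges. In 2KO against deltaEmu, Bcl2a1b ranged from -0.71 to 1.88, Bbc3 from -0.23 to 0.13, Bax from -0.07 to 0.14 and Bak1 from -0.1 to 0.01. In 2KO against RAG2_deficient, Bcl2a1b ranged from -0.62 to 0.41 and Bax from -0.28 to 0.79. In deltaEmu against RAG2_deficient, Bcl2 ranged from -0.18 to 0.03, Bcl2a1b from -1.9 to 0.7, Bmf from -0.11 to 0.03 and Bax from -0.31 to 0.75. With SAHA, Bcl2l1 ranged from -0.15 to 0.29, Bbc3 from -0.05 to 0.25, Bax from -0.14 to 0.79 and Bak1 from -0.1 to 0.35. In LPS_IL4 against the femoral mean, Mcl1 ranged from -0.13 to 0.22 and Bak1 from -0.37 to 0.19.

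The spleen libraries of both cultures carry the same pool numbers, and the labels do not say whether equal numbers mean the same animals. Same-numbered libraries deviated in opposite ways (r = -0.49 over 10775 genes). With 2 libraries per group, 1 of them LPS_IL4 6_et_8 with its length trend, whether the numbers pair the libraries cannot be told. With the pool number as a replicate block 0 genes and 0 members were called with SAHA, and with a crossed block, chosen after seeing the data, 0 genes, so no call changed. The length offset was likewise chosen after seeing the data. The femoral groups' numbers name samples only, and no block was fitted there. With 2 libraries per group, 4 to 22 reads of Bcl2a1b in femoral libraries limit what could be seen of that gene among the femoral groups.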
